A study of Mus musculus with 12 samples.

Results

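Prss34, Mcpt8, Cma1, Cpa3, Prg2, Prg3, Epx, Ms4a2 and Fcer1a are effector genes of mast cells, basophils and eosinophils. These 9 genes were taken by symbol out of 37086 mouse genes for which exon counts could be built, and their exon counts were followed in all 12 libraries. All 9 were among the 15662 genes with enough counts to be tested. Cma1, Prg2 and Epx reached that minimum only with the help of the WT preGM libraries. Their calls, fold changes and p-values therefore describe genes that had to be high in that group.

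The libraries form 4 groups of 3. MLL-ENL preGM and MLL-ENL HSC came from a strain labelled Col1a1-MLL/ENL, which carries the leukaemia fusion gene MLL-ENL; its genetic background is not in the labels. WT preGM and WT HSC came from C57bl/6 WT mice. HSC are haematopoietic stem cells, sorted as lineage-negative cells with Sca1, Kit and CD150 on the surface and without CD48. PreGM are committed granulocyte and macrophage precursors, sorted as lineage-negative, Kit-positive cells lacking Sca1, CD150, CD105, CD41 and CD16/32. Every group, WT included, spent 48 h with 1 µg/ml of doxycycline, the drug used to induce the fusion gene, in OptiMEM medium holding 10% serum. The cytokines were G-CSF and IL3 (5 ng/ml of each) and SCF (from 10 up to 50 ng/ml). No MLL-ENL library without doxycycline was analysed here, so the fusion and other differences between the strains cannot be told apart. Whether the 3 replicates of a group were separate animals or cultures is not in the labels, so a p-value reflects only how these libraries vary, and that variation may be technical.

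Mast cells, basophils and eosinophils are granulocytes of allergy and of defence against parasites. They store proteases and toxic basic proteins in granules, and mast cells and basophils bind IgE through a surface receptor whose cross-linking releases the granules. IL3, which was in the medium, is a growth factor for basophils and mast cells. Mcpt8 and Prss34 encode serine proteases of mouse basophils, Prss34 also one of mast cells. Cma1 encodes a mast cell chymase and Cpa3 a carboxypeptidase of mast cells and basophils. Prg2 encodes eosinophil major basic protein, Prg3 its close relative and Epx eosinophil peroxidase. Fcer1a encodes the IgE-binding alpha chain of the high-affinity IgE receptor and Ms4a2 its beta chain. GATA factors are known regulators of these lineages.

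RefSeq promoter entries on GRCm38.p6 matched 8 of the 9 genes, and the 250 bases before each start were searched on both strands for the letters AGATAA, a core bound by GATA factors. They occurred in 4 of the 8 and in 9.99% of 32851 mouse promoters searched over the same length. The 4 are printed because they pair a protease gene that fell with the fusion in preGM (Cpa3, Prss34) with an IgE receptor gene that did not pass the test there (Ms4a2, Fcer1a). Capitals mark AGATAA, or TTATCT where the letters lie on the opposite strand. Each stretch runs 5′ to 3′ on the gene's own strand and ends at the base before the start.
Cpa3, chr3:20242182-20242431, minus strand: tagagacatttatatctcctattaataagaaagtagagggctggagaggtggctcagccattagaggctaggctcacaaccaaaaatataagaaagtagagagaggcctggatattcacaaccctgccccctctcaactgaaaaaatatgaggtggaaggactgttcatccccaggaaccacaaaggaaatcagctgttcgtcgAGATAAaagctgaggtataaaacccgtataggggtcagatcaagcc
Prss34, chr17:25298144-25298393, plus strand: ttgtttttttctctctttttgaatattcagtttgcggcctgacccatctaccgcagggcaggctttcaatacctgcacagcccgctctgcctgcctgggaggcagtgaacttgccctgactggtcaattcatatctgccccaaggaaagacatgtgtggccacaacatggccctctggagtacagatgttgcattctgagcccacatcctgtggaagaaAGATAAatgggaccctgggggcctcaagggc
Ms4a2, chr19:11623720-11623969, minus strand: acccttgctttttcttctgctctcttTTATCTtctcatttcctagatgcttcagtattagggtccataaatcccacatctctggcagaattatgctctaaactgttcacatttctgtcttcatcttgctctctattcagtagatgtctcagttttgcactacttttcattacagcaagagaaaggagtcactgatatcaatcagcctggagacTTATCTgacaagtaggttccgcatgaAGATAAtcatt
Fcer1a, chr1:173227230-173227479, minus strand: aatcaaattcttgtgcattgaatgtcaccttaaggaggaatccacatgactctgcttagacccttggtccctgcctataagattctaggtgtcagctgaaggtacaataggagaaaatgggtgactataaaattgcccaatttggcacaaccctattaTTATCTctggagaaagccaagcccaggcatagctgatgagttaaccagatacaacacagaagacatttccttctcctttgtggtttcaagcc
The letters began 46 bases before the start of Cpa3 and 31 bases before that of Prss34. Ms4a2 held them at 11 bases on its own strand and at 224 and 37 bases on the opposite strand, and Fcer1a at 92 bases on the opposite strand. The windows of Mcpt8, Cma1, Prg3 and Epx did not hold these letters. Other letters that GATA factors may bind were not searched, so these windows are not shown to lack such sites. The E-box letters CAGCTG occurred in Fcer1a and Cpa3 (13% of all promoters) and the PU.1 letters GAGGAA in Fcer1a and Mcpt8 (23.3%). The STAT letters TTCNNNGAA occurred in none of the 8 (7.02%). No match of one motif shared a base with AGATAA. The motifs were chosen after the values were seen, and a match is a description of the sequence only.

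The libraries held 38438059 to 50300532 gene counts in MLL-ENL preGM, 34708594 to 44459882 in WT preGM, 18966266 to 23436018 in MLL-ENL HSC and 14518798 to 18145089 in WT HSC. Levels are CPM, counts scaled to library size after TMM scaling, whose factors ran from 0.619 in WT preGM replicate 2 to 1.06 in MLL-ENL preGM replicate 1 among preGM. These 2 libraries stood apart at the ends of that range, and results that turn on them are given with and without them. Among the antigens of the sorting gates, Ly6a (Sca1) averaged 6.60 ± 1.66 CPM in MLL-ENL preGM and 23.1 ± 4.30 in WT preGM, against 213 ± 20.7 in MLL-ENL HSC and 139 ± 12.7 in WT HSC (SD, n = 3 each). Cd48, which the stem cell gate excludes, averaged 5.67 ± 1.29 CPM in MLL-ENL HSC and 111 ± 21.2 CPM in WT HSC. Fcgr3 (CD16), which the preGM gate excludes, averaged 36.1 ± 11.5 CPM in MLL-ENL preGM and 208 ± 62.0 CPM in WT preGM. Other antigens that this gate excludes were higher with MLL-ENL. Slamf1 (CD150) averaged 1.27 ± 0.479 and 0.139 ± 0.0484 CPM in the same order, and Itga2b (CD41) 15.4 ± 11.8 and 3.82 ± 0.363 CPM. Eng (CD105) averaged 5.43 ± 2.47 and 3.09 ± 0.559 CPM, and Fcgr2b (CD32) 141 ± 19.2 and 153 ± 59.4 CPM, with neither passing the test. All these values were taken after culture. A count of 3 in a library corresponds to 0.0790 CPM in MLL-ENL preGM, 0.105 in WT preGM, 0.107 in MLL-ENL HSC and 0.163 in WT HSC, on average. Such floors cover counting error only.

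In preGM with MLL-ENL, 6 of the 9 genes fell and none rose, where 6.77% of all tested genes passed, 3.08% by a fall and 3.70% by a rise (edgeR quasi-likelihood test, adjusted p below 0.05). The 6 were the 4 protease genes Prss34, Mcpt8, Cma1 and Cpa3 and the eosinophil genes Prg2 and Prg3. The 2 receptor genes Fcer1a and Ms4a2 and the peroxidase gene Epx did not pass the test. The median log2 fold change of the 9 genes was -4.06, against 0.08 over all genes. Cma1, Prg2 and Epx had to be high in WT preGM to be tested at all. The 9 were also chosen with earlier results of these data known, so the count and the median are descriptions. In such bulk libraries, fewer cells of a type and less RNA per cell cannot be told apart.

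Markers of other blood cells also differed between MLL-ENL preGM and WT preGM, where 3.08% of all tested genes fell and 3.70% rose. Of 10 neutrophil markers 9 fell. Their summed level was 12678 to 16120 CPM in MLL-ENL preGM and 30410 to 34570 CPM in WT preGM. The marker that did not pass was Mpo, with 7961 ± 3636 CPM in MLL-ENL preGM and 5256 ± 2613 CPM in WT preGM (edgeR adjusted p = 0.413). Of 7 tested among 8 monocyte and macrophage markers 3 fell, with sums of 323 to 439 CPM and 1063 to 1618 CPM in the same order. Of 11 megakaryocyte and erythroid markers 1 rose and 3 fell, with sums of 73.2 to 95.6 CPM in MLL-ENL preGM and 88.6 to 157 CPM in WT preGM. Of 2 tested among 8 lymphoid markers 1 rose, with sums of 3.48 to 6.63 CPM and 3.36 to 4.15 CPM, and Cd3e was at 0 in both groups. In preGM no marker of any of these lists other than the lymphoid was at 0. Their part in the fall of the 6 genes was not tested.

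**Figure D1:**
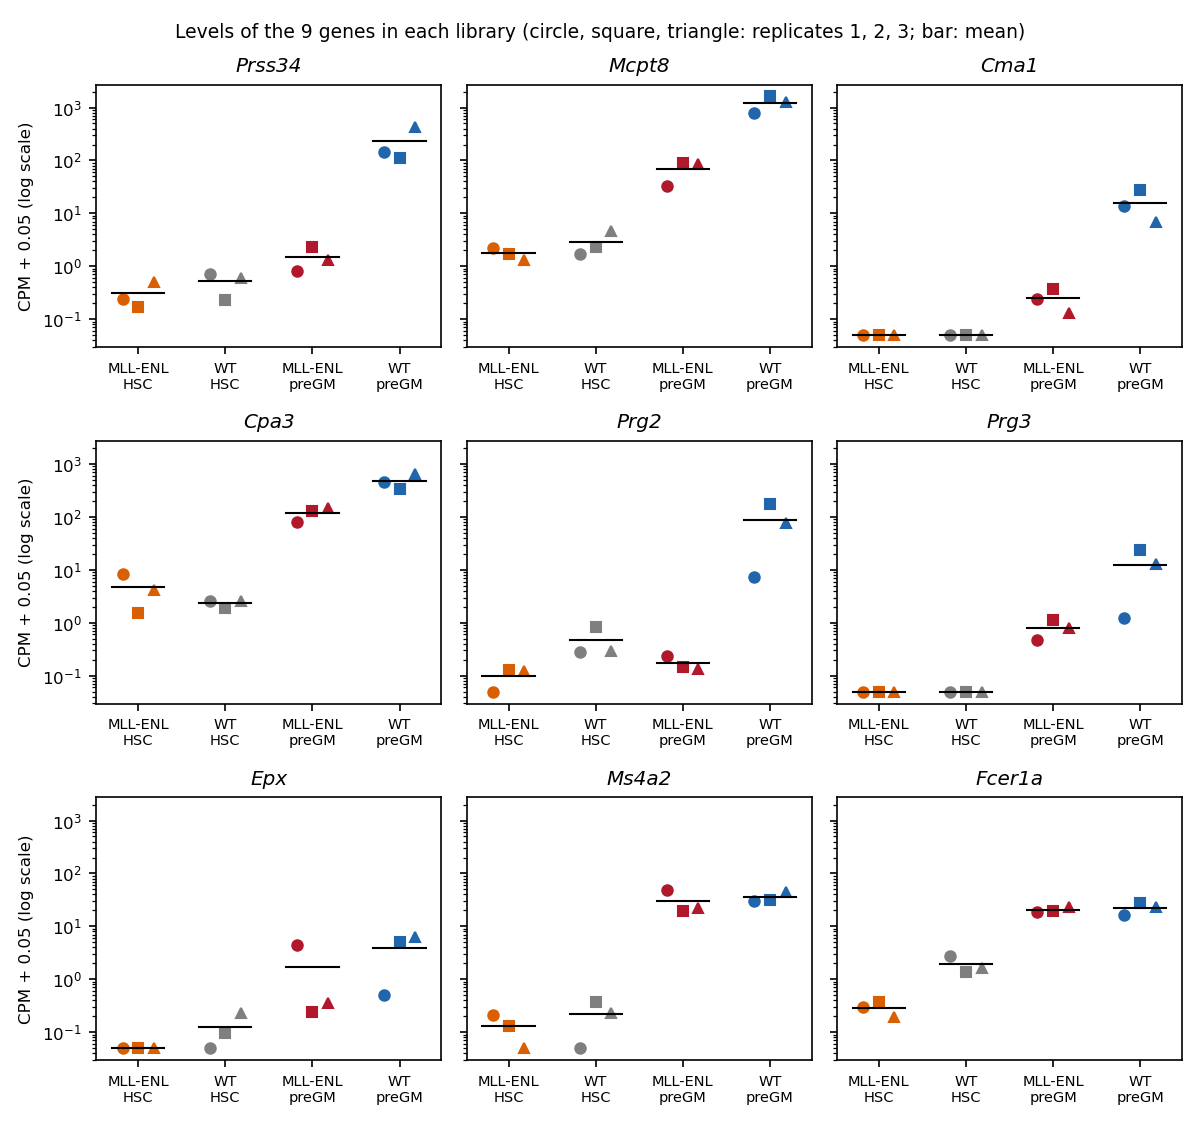
Level of each gene in each library, as CPM + 0.05 on a log scale, in MLL-ENL HSC, WT HSC, MLL-ENL preGM and WT preGM from left to right. Points are libraries (circle, square and triangle for replicates 1, 2 and 3) and bars are group means. Mcpt8 lies at 32.7 to 88.8 CPM in MLL-ENL preGM and at 775 to 1620 CPM in WT preGM, while Fcer1a spans 18.8 to 23.2 and 16.6 to 27.5 CPM in the same groups.

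Among the proteases, Prss34 had 0.753, 2.31 and 1.24 CPM in MLL-ENL preGM replicates 1 to 3, against 146, 113 and 433 CPM in WT preGM. The groups lay far apart, and WT preGM replicate 3 was the highest library. Prss34 fell by 7.35 ± 0.63 (SE) on the log2 scale, to a 164-fold lower level (edgeR adjusted p = 2.71e-06). Behind these levels were 40, 71 and 45 counts in MLL-ENL preGM and 4896, 2419 and 15194 counts in WT preGM.

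Mcpt8 was the gene of the 9 with the highest level per kilobase in WT preGM. It had 32.7, 88.8 and 85.1 CPM in MLL-ENL preGM, against 775, 1620 and 1245 CPM in WT preGM. The groups did not overlap, and replicate 1 was the lowest library in each. Mcpt8 fell 17.6-fold, by 4.14 ± 0.46 on the log2 scale (edgeR adjusted p = 4.42e-05), yet still reached 1739 to 3081 counts in each MLL-ENL preGM library.

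Cma1 had 0.188, 0.325 and 0.0829 CPM in MLL-ENL preGM, from 10, 10 and 3 counts. In WT preGM it had 13.8, 27.1 and 6.92 CPM, from 462, 581 and 243 counts. Its MLL-ENL preGM libraries were thus close to the floor of detection, while all WT preGM libraries were well above it. Cma1 fell by 6.32 ± 0.66 on the log2 scale (edgeR adjusted p = 0.000139).

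Cpa3 had the smallest change of the 4 proteases. Its levels were 78.7, 129.9 and 149.7 CPM in MLL-ENL preGM, against 456, 330.0 and 634 CPM in WT preGM. The groups did not overlap, and the log2 fold change of -1.99 ± 0.44 was a 3.96-fold lower level (edgeR adjusted p = 0.0119). Without MLL-ENL preGM replicate 1, which had the lowest level, the fold change was -1.76 and the adjusted p 0.0600, which did not pass the test. Over the 19 alternatives run, that adjusted p ranged from 0.000212 to 0.0600.

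**Figure D2:**
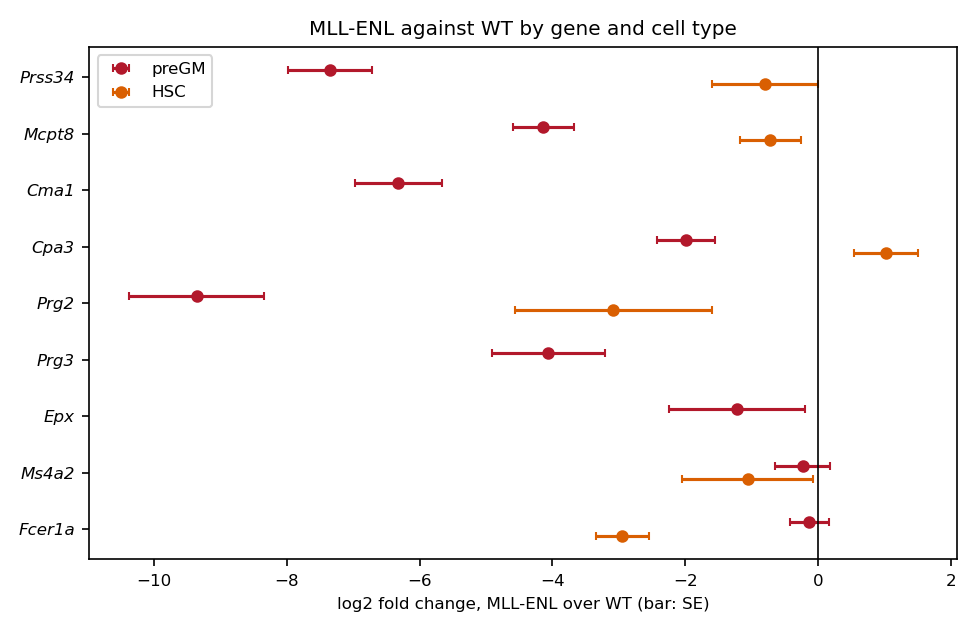
Log2 fold change of MLL-ENL over WT for each gene, with bars of 1 SE, in preGM (dark red) and HSC (orange). Cma1, Prg3 and Epx have no HSC point because at least 1 HSC group held no counts. In preGM the values run from -9.36 for Prg2 to -0.13 for Fcer1a.

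Among the eosinophil granule genes, Prg2 showed the largest fitted difference of the 9. It had 0.188, 0.0975 and 0.0829 CPM in MLL-ENL preGM, from 10, 3 and 3 counts, against 7.41, 179 and 78.4 CPM in WT preGM, from 248, 3845 and 2753 counts. WT preGM replicate 1 lay 24.2-fold under the highest WT preGM library, but still above every MLL-ENL preGM library. Prg2 fell by 9.36 ± 1.02 on the log2 scale (edgeR adjusted p = 3.39e-05).

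Prg3, whose gene lies 4583 bases from Prg2 on chromosome 2, had 0.414, 1.07 and 0.746 CPM in MLL-ENL preGM, against 1.17, 23.2 and 12.7 CPM in WT preGM. WT preGM replicate 1 again was low and lay next to MLL-ENL preGM replicate 2, so the groups were separated by a narrow gap. Prg3 fell by 4.06 ± 0.85 on the log2 scale (edgeR adjusted p = 0.0136). This call rested on single libraries. Without WT preGM replicate 2 the fold change was -3.23 (adjusted p = 0.0936), without MLL-ENL preGM replicate 1 it was -3.76 (adjusted p = 0.0929), and without both it was -2.93 (adjusted p = 0.127). Over the 19 alternatives run, the adjusted p ranged from 0.000988 to 0.127.

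Epx had 4.37, 0.195 and 0.304 CPM in MLL-ENL preGM, against 0.448, 4.98 and 6.12 CPM in WT preGM. The groups overlapped: MLL-ENL preGM replicate 1 came close to the upper WT libraries, and WT preGM replicate 1 to the lower MLL-ENL libraries. The log2 fold change was -1.22 ± 1.03 (edgeR adjusted p = 0.493). Without MLL-ENL preGM replicate 1, it was -3.91 ± 1.11, with an adjusted p of 0.0782 that did not pass the test.

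The exon counts show where the 232 counts of Epx in MLL-ENL preGM replicate 1 lay. They were spread over 13 of its 14 exons, 12.9% of them in the last exon, with 0 counts in the 7980 bases of intron. The same library held only 10 counts of Prg2 and 22 of Prg3. In the other MLL-ENL preGM libraries, 6 and 11 counts of Epx were spread over 5 exons each. In WT preGM, 40.0%, 54.2% and 30.2% of the Epx counts of replicates 1, 2 and 3 lay in the last exon. They were spread over 7, 11 and 14 exons, so WT preGM replicate 3 also had counts along the whole gene. That 1 MLL-ENL library therefore carried Epx counts along the length of the gene, while Prg2 stayed near the floor there.

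**Figure D3:**
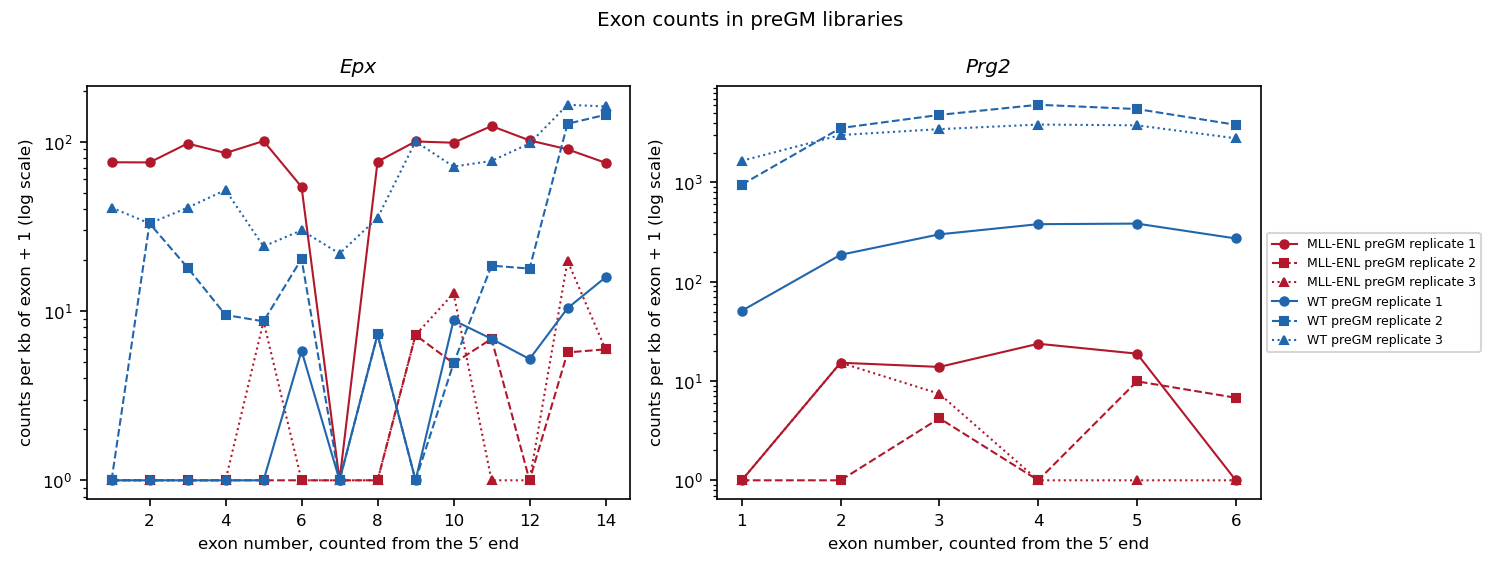
Counts per kilobase of exon + 1, on a log scale, by exon number from the 5′ end, for Epx (left) and Prg2 (right) in MLL-ENL preGM (red) and WT preGM (blue); line styles mark replicates. MLL-ENL preGM replicate 1 has Epx counts in 13 of 14 exons, 232 in all, but only 10 counts of Prg2.

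The 2 genes of the IgE receptor did not pass the test in preGM. Fcer1a had 18.8, 19.7 and 23.2 CPM in MLL-ENL preGM, against 16.6, 27.5 and 23.5 CPM in WT preGM, with overlapping groups. The log2 fold change was -0.13 ± 0.29 (edgeR adjusted p = 0.810) and took both signs among the alternatives, so no direction is given. Ms4a2 had 49.0, 19.2 and 21.7 CPM in MLL-ENL preGM, against 30.3, 31.2 and 44.3 CPM in WT preGM. These groups overlapped too, because MLL-ENL preGM replicate 1 was the highest of the 6 libraries and the other 2 MLL-ENL libraries the lowest. The log2 fold change was -0.23 ± 0.41 (edgeR adjusted p = 0.763), again with both signs among the alternatives. Without both libraries that stood apart it was -0.87 ± 0.37, which did not pass (adjusted p = 0.220), and for Fcer1a 0.10 ± 0.31 (adjusted p = 0.947). A p that misses the threshold does not show that the levels were equal.

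The gamma chain of the receptor, encoded by Fcer1g and shared with other Fc receptors, did fall. Fcer1g averaged 331 ± 162 CPM in MLL-ENL preGM and 1209 ± 712 CPM in WT preGM, a log2 fold change of -1.87 ± 0.42 (SE; edgeR adjusted p = 0.0115). The 3 chains thus did not share 1 result in this comparison: 1 passed the test and 2 did not.

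Ratios within a library do not depend on its scaling. The ratio of Mcpt8 to Fcer1a counts was 1.74, 4.51 and 3.67 in MLL-ENL preGM, against 46.6, 58.8 and 53.1 in WT preGM, 17.2-fold lower on average over logs. For Prss34 to Fcer1a it was 0.0400, 0.117 and 0.0536, against 8.79, 4.09 and 18.4, which is 138-fold lower. For Cpa3 to Fcer1a it was 4.19, 6.59 and 6.46, against 27.4, 12 and 27, which is 3.68-fold lower. In each of these the groups did not overlap. The ratio of Ms4a2 to Fcer1a was 2.61, 0.977 and 0.938 in MLL-ENL preGM, against 1.82, 1.13 and 1.89 in WT preGM, and the groups overlapped. Relative to Fcer1a transcripts of the same library, Mcpt8, Prss34 and Cpa3 transcripts were thus lower with MLL-ENL, and by different amounts. Ratios to Fcer1g, which itself fell in preGM, were not taken. Prss34 counts per Mcpt8 count were 8.05-fold lower and Mcpt8 counts per Cpa3 count 4.66-fold lower. The ratio of Prg2 to its neighbour Prg3 was 0.455, 0.0909 and 0.111 in MLL-ENL preGM, against 6.36, 7.74 and 6.16 in WT preGM. WT preGM replicate 1, where both genes were low, kept a ratio close to that of the other WT libraries. These ratios were chosen after the values were seen and are given as descriptions, without a test.

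**Figure D4:**
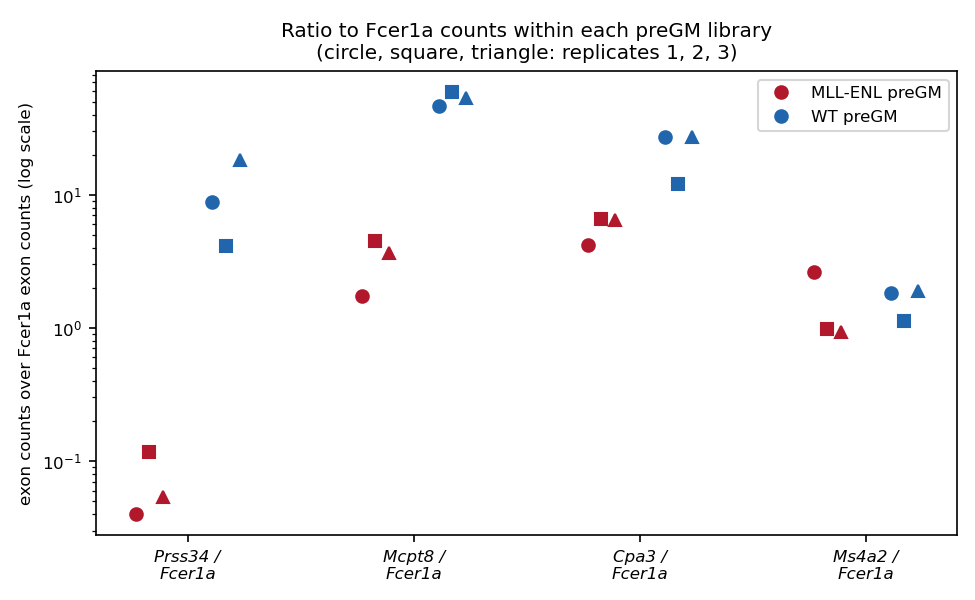
Exon counts of Prss34, Mcpt8, Cpa3 and Ms4a2 divided by those of Fcer1a in the same library, on a log scale, for MLL-ENL preGM (red, left) and WT preGM (blue, right). Symbols mark replicates. The groups are apart for the 3 proteases, as in 1.74 to 4.51 against 46.6 to 58.8 for Mcpt8, and overlap for Ms4a2.

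Summed over the 9 genes, these transcripts made up 0.0196%, 0.0209% and 0.0237% of all gene counts in MLL-ENL preGM, against 0.109%, 0.146% and 0.196% in WT preGM. In WT preGM the order of mean levels per kilobase of exon was Mcpt8 (1419 ± 495 CPM per kb, SD), Cpa3 (326 ± 105), Prss34 (189.6 ± 145), Prg2 (105 ± 103), Ms4a2 (26.7 ± 5.94), Fcer1a (22 ± 5.36), Cma1 (14.8 ± 9.53), Prg3 (13 ± 11.6) and Epx (1.41 ± 1.10), with n = 3 each. Mcpt8 lay above Cpa3 in every library, while each later pair of neighbours in this order overlapped between libraries. In MLL-ENL preGM the levels per kilobase were 82.3 ± 25.2 for Cpa3, 80.6 ± 36.7 for Mcpt8, 22.7 ± 12.5 for Ms4a2 and 20.0 ± 2.25 for Fcer1a. Prss34 followed at 1.18 ± 0.654, then Prg3 at 0.784 ± 0.347, Epx at 0.593 ± 0.869, Cma1 at 0.185 ± 0.113 and Prg2 at 0.147 ± 0.0681 CPM per kb. By these means, Prss34 and Prg2 ranked below both receptor genes with MLL-ENL and above them in WT.

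In stem cells 1 of the 9 genes passed the test. Fcer1a fell with MLL-ENL, where 4.12% of all tested genes passed, 0.932% by a fall and 3.19% by a rise. It had 0.253, 0.319 and 0.142 CPM in MLL-ENL HSC, from 8, 8 and 4 counts, against 2.68, 1.31 and 1.60 CPM in WT HSC, from 48, 29 and 26 counts. The groups did not overlap. The log2 fold change was -2.95 ± 0.40, a 7.75-fold lower level (edgeR adjusted p = 0.000789). It ranged from -3.19 to -2.59 over the alternatives and passed the test in all 19. Of the few MLL-ENL HSC counts, 75.0% lay in the last exon in each library, against 35.4%, 48.3% and 11.5% in WT HSC. The megakaryocyte and erythroid markers of these libraries summed to 222 to 266 CPM (MLL-ENL HSC) and 628 to 791 CPM (WT HSC). Of these 11 markers 2 fell and 1 rose, and their median log2 fold change was 0.10. Pf4, which fell, averaged 47 ± 19 CPM in MLL-ENL HSC and 481 ± 74.9 CPM in WT HSC. Hbb-bt, which also fell, averaged 19.9 ± 1.35 and 94.2 ± 13 CPM in the same order. Vwf, which rose, averaged 85.5 ± 15.6 and 42.4 ± 2.64 CPM. The neutrophil markers summed to 238 to 272 and 293 to 429 CPM, and none of the 10 passed the test. The lymphoid markers summed to 1.13 to 1.79 CPM in MLL-ENL HSC and 2.63 to 5.42 CPM in WT HSC. Of the 8 in that list 2 were tested. Dntt, a gene of early lymphoid cells, had no counts in MLL-ENL HSC and 3.38 ± 0.943 CPM in WT HSC (edgeR adjusted p = 0.000145). The other, Vpreb1, averaged 1.31 ± 0.248 CPM in MLL-ENL HSC and 0.999 ± 0.698 CPM in WT HSC. It did not pass the test (edgeR adjusted p = 0.735). The part of these markers in the Fcer1a result was not tested.

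The other 8 genes did not pass the test in stem cells. Cpa3 had 8.23, 1.47 and 4.14 CPM in MLL-ENL HSC, against 2.52, 1.86 and 2.52 CPM in WT HSC. The groups overlapped, with MLL-ENL HSC replicate 1 highest and replicate 2 lowest of all 6, and the log2 fold change was 1.02 ± 0.48 (edgeR adjusted p = 0.266). Intron counts per 100 exon counts of Cpa3 were 23.1, 32.4 and 26.5 in MLL-ENL HSC, against 0, 7.32 and 12.2 in WT HSC. Behind these were 60, 12 and 31 intron counts in MLL-ENL HSC and 0, 3 and 5 in WT HSC, so the MLL-ENL libraries held more intron signal of this gene. Mcpt8 had 2.19, 1.67 and 1.24 CPM in MLL-ENL HSC, against 1.68, 2.31 and 4.50 CPM in WT HSC, and its groups overlapped (log2 fold change -0.72 ± 0.46, edgeR adjusted p = 0.428).

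The remaining 6 genes were read from a handful of counts in stem cells. Prss34 had 6, 3 and 13 counts in MLL-ENL HSC and 12, 4 and 9 in WT HSC. Prg2 had 0, 2 and 2 counts in MLL-ENL HSC and 4, 17 and 4 in WT HSC, and its log2 fold change of -3.08 ± 1.48 did not pass the test (edgeR adjusted p = 0.281). Ms4a2 had 5, 2 and 0 counts in MLL-ENL HSC and 0, 7 and 3 in WT HSC. Epx had 0 counts in all MLL-ENL HSC libraries and 0, 1 and 3 in WT HSC. Cma1 and Prg3 had 0 counts in all 6 stem cell libraries. None of these genes passed the test.

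The response to MLL-ENL differed between preGM and HSC for 4 of the 9 genes by the interaction term, against 3.13% of all tested genes. The term was lower in preGM for Prss34 (-6.55 ± 1.03, edgeR adjusted p = 0.00195), Mcpt8 (-3.42 ± 0.63, adjusted p = 0.00574) and Cpa3 (-3.0 ± 0.65, adjusted p = 0.0160). For Fcer1a it was 2.82 ± 0.50 (adjusted p = 0.00441), as this gene fell in HSC and did not pass the test in preGM. Of all tested genes, 2.06% had a lower and 1.07% a higher term. The Cpa3 term did not pass without MLL-ENL HSC replicate 1 (-2.29, adjusted p = 0.0556) or without WT HSC replicate 2 (-2.87, adjusted p = 0.0522). The Prg2 term of -6.27 ± 2.78 did not pass (adjusted p = 0.269), but did without WT preGM replicate 1 (adjusted p = 0.0405). For the genes with groups at 0 counts, no term is given.

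All 9 genes were higher in preGM than in HSC in WT cells, where 38.5% of all tested genes passed, 18.4% higher and 20.1% lower. WT preGM stood 503-fold above WT HSC for Prss34, 431-fold for Mcpt8, 206-fold for Cpa3, 202-fold for Prg2, 196-fold for Ms4a2 and 12.1-fold for Fcer1a (edgeR adjusted p from 2.03e-08 for Mcpt8 to 1.26e-05 for Prg2). Epx was 50.2-fold higher (adjusted p = 0.00756). In WT HSC the mean of Epx (0.0767 CPM) lay under the floor of 0.163 CPM and that of Ms4a2 (0.167 CPM) next to it. The sizes of these folds are therefore uncertain. For Cma1 and Prg3 only lower bounds can be given, since WT HSC held no count: at least 97.8-fold for Cma1 and at least 75.8-fold for Prg3, against the floor of 3 counts per library. Many of these genes passed the count minimum through preGM libraries, so the number called is a description. The neutrophil markers summed to 30410 to 34570 CPM in WT preGM and 293 to 429 CPM in WT HSC.

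With MLL-ENL, 8 of the 9 genes were higher in preGM than in HSC, where 41.6% of all tested genes passed, 20.4% higher and 21.2% lower. Ms4a2 stood 349-fold higher, Fcer1a 85.5-fold, Mcpt8 40.3-fold, Cpa3 25.7-fold and Prss34 5.37-fold (edgeR adjusted p from 1.98e-08 for Fcer1a to 0.00884 for Prss34). In MLL-ENL HSC, Ms4a2 had 5, 2 and 0 counts, a mean of 0.0793 CPM under the floor of 0.107 CPM. The size of its fold is therefore uncertain. Fcer1a had 8, 8 and 4 counts there, so its fold also rests on few counts. The lower bounds were at least 15.2-fold for Epx, 6.96-fold for Prg3 and 1.86-fold for Cma1. Prg2 did not pass the test (log2 fold change 1.38 ± 1.64, adjusted p = 0.523), with 10, 3 and 3 counts in MLL-ENL preGM and 0, 2 and 2 in MLL-ENL HSC. The Prss34 call did not hold when libraries were scaled by size alone (1.81, adjusted p = 0.0544). Among the genes with a fitted fold, Ms4a2 and Fcer1a led with MLL-ENL, and Prss34 and Mcpt8 led in WT. The order did not reverse for every pair, as Cpa3 (206-fold) and Ms4a2 (196-fold) lay close together in WT. Fcer1a averaged 0.238 CPM in MLL-ENL HSC and 1.87 CPM in WT HSC, against 20.6 CPM in MLL-ENL preGM and 22.5 CPM in WT preGM. Its folds thus differed between the strains more through HSC than through preGM.

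Within WT preGM, the eosinophil genes varied most. The highest library was 24.2-fold above the lowest for Prg2, 19.9-fold for Prg3 and 13.7-fold for Epx, and replicate 1 was lowest in all 3. Prss34, Mcpt8, Cma1, Cpa3, Ms4a2 and Fcer1a varied 1.46-fold to 3.91-fold in the same libraries. Replicate 1 was also the lowest there for Mcpt8, Ms4a2 and Fcer1a, but not for Prss34, Cma1 or Cpa3. In MLL-ENL preGM, Epx varied 22.4-fold, Prg2 2.27-fold and Prg3 2.59-fold, the last 2 less than Cma1 (3.92-fold), Prss34 (3.06-fold) and Mcpt8 (2.71-fold). In MLL-ENL HSC, Cpa3 varied 5.59-fold. Ms4a2 had 2604 counts in MLL-ENL preGM replicate 1, against 592 and 787 in replicates 2 and 3. Of these 46.9%, 38.0% and 39.8% lay in the last exon.

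Related genes outside the 9 were counted in 6 lists, beside the 3.08% of all tested genes that fell and the 3.70% that rose in preGM. Of 11 tested among 19 other mast cell genes, 1 fell with MLL-ENL and none rose, with a median log2 fold change of -0.40, against 0.08 over all genes. The 1 was Srgn, which encodes the granule proteoglycan serglycin and is active in many blood cells (1606 ± 628 CPM in MLL-ENL preGM and 4792 ± 1022 in WT preGM, log2 fold change -1.58 ± 0.33, edgeR adjusted p = 0.00700). Hdc, which makes histamine, averaged 68.0 ± 33.9 CPM in MLL-ENL preGM and 30.0 ± 13.1 CPM in WT preGM (log2 fold change 1.18, adjusted p = 0.0731). Tph1 went the other way, with 0.328 ± 0.515 CPM in MLL-ENL preGM and 3.27 ± 0.501 CPM in WT preGM. Its log2 fold change of -3.22 did not pass either (edgeR adjusted p = 0.0585). Cyp11a1, whose product starts steroid synthesis from cholesterol, averaged 172 ± 12.5 CPM and 239 ± 147 CPM in the same order (adjusted p = 0.510). Il1rl1, the IL33 receptor of mast cells and basophils, averaged 8.46 ± 2.87 CPM in MLL-ENL preGM and 11.2 ± 2.55 CPM in WT preGM (adjusted p = 0.661). The mast cell protease genes Mcpt1 and Tpsab1 had no counts in any group, and Mcpt4 and Tpsb2 had none outside WT preGM, where they averaged 0.00996 and 0.0855 CPM. Several defining mast cell proteases were therefore at or near 0 in libraries that held Cpa3 and Cma1.

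Of 14 tested among 15 other basophil genes, 3 fell and none rose, where 3.08% of all tested genes fell, with a median of -0.91. Cd200r3, a receptor of basophils and mast cells, averaged 4.04 ± 1.27 CPM in MLL-ENL preGM and 13.8 ± 5.38 in WT preGM (log2 fold change -1.76 ± 0.49, edgeR adjusted p = 0.0407). The others were the chemokine gene Ccl4 (-2.76 ± 0.65, adjusted p = 0.0173) and Lmo4 (-0.96 ± 0.23, adjusted p = 0.0205), which encodes a transcriptional cofactor. Ccl4 averaged 6.56 ± 2.47 CPM in MLL-ENL preGM and 44.5 ± 55.8 CPM in WT preGM. Its SD in WT preGM exceeded the mean, so those libraries differed widely and the size of its fall is uncertain. In stem cells 1 of these basophil genes rose and 1 fell, where 3.19% of all tested genes rose and 0.932% fell. Il3ra, the IL3 receptor alpha chain, averaged 4.72 ± 3.01 CPM in MLL-ENL HSC and 0.602 ± 0.539 CPM in WT HSC (log2 fold change 2.93 ± 0.73, adjusted p = 0.0323). The interferon-induced Ifitm1 fell there by 1.38 ± 0.35 (adjusted p = 0.0390).

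Of 7 tested among 14 other eosinophil genes, 2 fell in preGM and none rose, where 3.08% of all tested genes fell, with a median of -0.42. Ear2, an eosinophil ribonuclease gene, averaged 0.00628 ± 0.0109 CPM in MLL-ENL preGM and 6.12 ± 3.71 CPM in WT preGM (adjusted p = 3.59e-05). Ear genes have near-identical copies, so reads may be split between them and this value is uncertain. Ear2 averaged 0.0251 CPM in MLL-ENL HSC and 0.0373 CPM in WT HSC, so only WT preGM carried it past the count minimum. It had to be high in that group to be tested, and its call is a description. S100a10 fell by 1.39 ± 0.37 (adjusted p = 0.0327). Siglecf, a surface lectin of eosinophils, averaged 2.81 ± 0.816 CPM in MLL-ENL preGM and 2.80 ± 0.558 CPM in WT preGM. The eotaxin receptor gene Ccr3 averaged 0.378 ± 0.103 and 0.140 ± 0.242 CPM in the same groups and was not tested.

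Of 17 genes of IgE receptor signalling, all tested, Fcer1g alone passed in preGM, where 6.77% of all tested genes did, and the list's median was 0.14. The kinases Lyn (41.8 ± 19.0 CPM in MLL-ENL preGM and 39.4 ± 3.61 in WT preGM) and Syk (43.6 ± 16.4 and 39.9 ± 7.07 CPM) did not pass. Of 13 genes of the chymase and granzyme locus on chromosome 14, where Cma1 and Mcpt8 lie, 2 were tested and both fell, where 3.08% of all tested genes fell. Gzmb, a granzyme, averaged 6.54 ± 0.533 CPM in MLL-ENL preGM and 112 ± 49.3 CPM in WT preGM (log2 fold change -4.10 ± 0.82, edgeR adjusted p = 0.00573). Ctsg, the cathepsin G gene of neutrophil granules, averaged 1080 ± 400.5 CPM and 2562 ± 567 CPM in the same order (-1.25 ± 0.33, adjusted p = 0.0334).

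**Figure D5:**
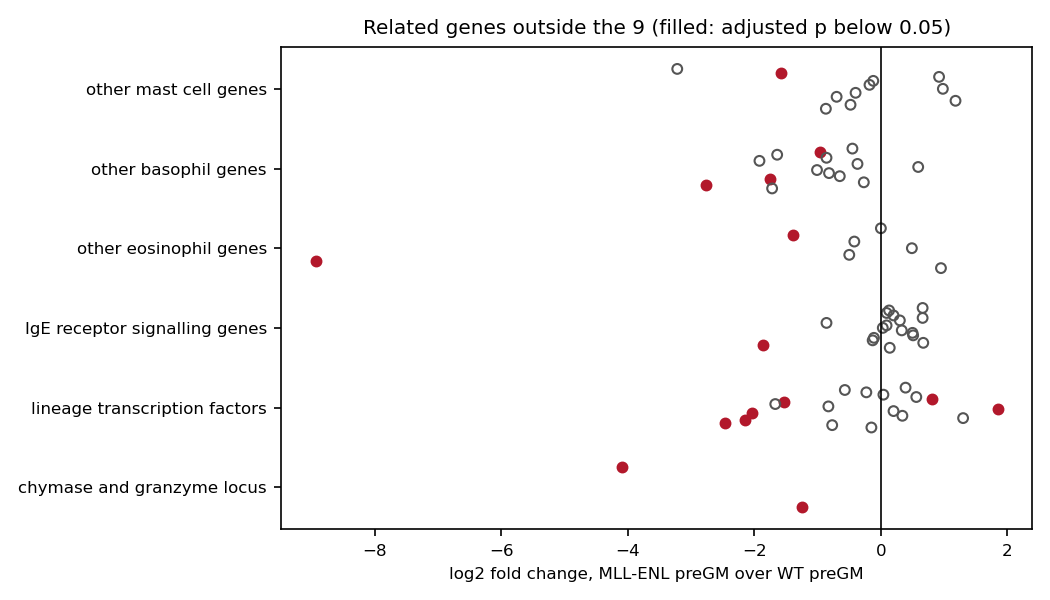
Log2 fold change of MLL-ENL preGM over WT preGM for the tested genes of 6 related lists, 1 point per gene; filled points passed the test (adjusted p below 0.05). Most points are open and lie near 0, and the filled point farthest to the left is Ear2, whose MLL-ENL preGM libraries averaged 0.00628 CPM. Ear2 passed the count minimum only through WT preGM.

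Of 18 lineage transcription factors, all tested, 4 fell and 2 rose in preGM, where 3.08% of all tested genes fell and 3.70% rose. Cebpb, a factor of stress granulopoiesis, averaged 4.23 ± 1.02 CPM in MLL-ENL preGM and 23.4 ± 8.53 CPM in WT preGM (log2 fold change -2.47 ± 0.39, edgeR adjusted p = 0.000893). Cebpe, a factor of late granulocyte maturation, averaged 7.40 ± 1.32 and 32.7 ± 3.94 CPM in the same order (-2.15 ± 0.53, adjusted p = 0.0230). Hes1, a target of Notch signalling, fell by 2.04 ± 0.40 (adjusted p = 0.00454), and Ikzf2, an Ikaros family member, was higher by 1.85 ± 0.27 (adjusted p = 0.000478). The other 2 called factors, named after their values were seen, were Spi1, which encodes PU.1 (-1.53, adjusted p = 0.00682), and Stat5a, which acts downstream of IL3 (0.81, adjusted p = 0.0255). Gata1 averaged 49.3 ± 1.25 CPM in MLL-ENL preGM and 19.9 ± 11.2 CPM in WT preGM, and Gata2 45.3 ± 2.45 and 35.9 ± 7.0 CPM. Neither GATA gene passed the test (adjusted p = 0.0528 for Gata1 and 0.337 for Gata2). In stem cells, where 4.12% of all tested genes passed, 1 factor did: Cebpa, which fell by 1.5 ± 0.40 (adjusted p = 0.0446).

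The nearest tested neighbours on the chromosome did not all move with the genes. Beside Ms4a2, which did not pass, both neighbours fell in preGM: Ms4a3 averaged 1440 ± 537 CPM in MLL-ENL preGM and 4692 ± 751 CPM in WT preGM (log2 fold change -1.70 ± 0.33, edgeR adjusted p = 0.00454). Ms4a6d, on the other side, averaged 9.04 ± 3.47 and 30.1 ± 15.5 CPM in the same order (-1.74 ± 0.39, adjusted p = 0.0120). Slc43a3 beside Prg2 (adjusted p = 0.582) and Gyg beside Cpa3 (adjusted p = 0.895) did not pass. P2rx3 beside Prg3 and Mks1 beside Epx did not pass either. Ackr1, 104672 bases from Fcer1a, averaged 0.486 ± 0.235 CPM in MLL-ENL preGM and 0.0155 ± 0.0269 CPM in WT preGM (adjusted p = 0.00342).

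Among the genes closest in pattern to the mean of the 9, by Pearson correlation of log2 CPM over the 12 libraries, were Ly6c2, Krr1, Ccl6, Gsr, Ero1l, Prss57, Prtn3, Itga1 and Dnmt3l, with r from 0.977 to 0.983. For Mcpt8 they were Ly6c2, Prtn3 and Ccl6 (r from 0.994 to 0.996), and for Prss34 they were Ngp, Lipg and Pilra (0.975 to 0.982). For Cpa3 they were AB124611, Gm17590 and Cldn15 (0.985 to 0.991), and for Cma1 Mcemp1, Gm10238 and Lipg (0.983 to 0.985). For Prg2 they were Pid1, Grb14 and Camp (0.947 to 0.952), for Prg3 Klrd1, Lmo4 and Akr1c18 (0.960 to 0.970), and for Epx Gm5345, Klf13 and Olr1 (0.929 to 0.946). Fcer1a was closest to Acat3, Tcrg-C1 and Cers6 (0.983 to 0.987), and Ms4a2 to Clec2i, Ugt1a6a and Ugt1a5 (0.990 to 0.992). Among the 9 themselves, r ran from 0.554 between Prg2 and Ms4a2 to 0.961 between Mcpt8 and Prg3. The 12 points share the gap between preGM and HSC libraries, which differ in depth as well, so these values are descriptions.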

How the data were processed

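The deposited files give, for every exon, intron and spliced transcript, a read count, deposited unscaled, and an RPKM, for which the authors divided by length and library size, per the file headers. RPKM was not used in a test. TopHat2 2.0.8, Bowtie2 2.1.0, HTSeq and edgeR are named in the submitters' processing notes. No source used here names the genome build. Transcripts were matched to GENCODE M21 on GRCm38 (89664 of 93615 by identifier, 2359 more by exon overlap, 1592 left out), and each gene's count is the sum over its non-overlapping exons with the most bases. None of the 9 genes shares exon bases with another gene in that annotation.

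All genes with enough counts (filterByExpr, minimum 10) were fitted together over the 12 libraries in edgeR 4.0.16 (R 4.3.3) with TMM scaling and the quasi-likelihood test, with 1 mean per group and no block. P-values were adjusted by Benjamini-Hochberg over all 15662 genes, and an adjusted p below 0.05 is a call. The script was tested on simulated data. Alternatives were DESeq2 1.42.0, library size alone, no filter, the longest transcript, only the groups compared, a replicate block, and leaving out libraries. Permuting labels exactly between groups of 3 cannot give a two-sided p under 0.1, so no such test is reported. Floors of 3 counts and the depths above cover counting error only, and amplified reads are not independent molecules.

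The members and lists were chosen with earlier results of these data known. Named are all 9 genes, up to 4 genes of each related list with the largest fold change among those called in a comparison, the nearest tested neighbours, and the genes most alike in pattern. Genes named beside these, among them Gata1, Gata2, Spi1, Stat5a, the antigens of the sorting gates and the list members that were not called, were chosen after their values were seen. A neighbour and a gene alike in pattern that this rule would name are not reported here.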

Additional observations from a re-analysis of the deposited data

Results flagged for a closer look

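For 4 of the 9 genes the response to MLL-ENL differed between preGM and HSC by a direct test of the difference, edgeR's interaction term. Of all tested genes 3.13% passed that test, 2.06% with a lower and 1.07% with a higher term. The 9 genes were chosen with earlier results of these data known, so their count is a description. The log2 response in preGM minus that in HSC was -6.55 for Prss34, -3.42 for Mcpt8 and -3.0 for Cpa3. For Fcer1a it was 2.82, because this gene fell with MLL-ENL in HSC and did not pass the test in preGM. The HSC side of each value rests on few counts: 3 to 13 per library for Prss34, 30 to 73 for Mcpt8, 37 to 260 for Cpa3 and 4 to 48 for Fcer1a. The Cpa3 call was lost without MLL-ENL HSC replicate 1 (edgeR adjusted p = 0.0556) or without WT HSC replicate 2 (edgeR adjusted p = 0.0522). Groups of 3 are too small for a test of single outlying libraries, so none was made.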

How the results depend on the processing

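Of 634 values of the 9 genes under alternatives, 619 kept their direction and their side of the threshold, 7 lost the call, 2 gained it and 6 changed sign. The 6 were small and uncalled. With library size alone, the preGM difference was 0.15 for Ms4a2 and 0.20 for Fcer1a. Fcer1a was 0.10 without both libraries that stood apart, and leaving out 1 library gave -0.31 to 0.03 for Fcer1a and -0.78 to 0.00 for Ms4a2. The Ms4a2 interaction ran from -0.13 to 1.87 in the same way. The cause was not tested. The Prg2 interaction passed with DESeq2 (-6.39, adjusted p = 0.00489). The numbers of the 9 genes called over single libraries left out were 1 in HSC, 4 to 6 in preGM, 3 to 5 for the interaction, 9 for WT preGM against WT HSC and 8 with MLL-ENL.

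Over all genes, DESeq2 called 1338 in HSC (main 646), 1734 in preGM (main 1061) and 1055 for the interaction (main 491). Fitting only the HSC groups called 2503 there. Leaving out both libraries that stood apart called 3362 in HSC and 1926 for the interaction. Leaving out 1 library called 312 to 1281 in HSC, 564 to 1342 in preGM, 298 to 694 for the interaction, 4563 to 7093 for WT preGM against WT HSC and 5036 to 7205 with MLL-ENL. Library size alone moved the median of all genes to 0.21 in HSC, 0.41 in preGM, 0.19 for the interaction, -0.73 for WT preGM against WT HSC and -0.56 with MLL-ENL. Its calls were 580 higher and 79 lower in HSC (main 500 and 146), 882 and 295 in preGM (main 579 and 482), 1188 and 6139 for WT preGM against WT HSC (main 2882 and 3144) and 1217 and 5505 with MLL-ENL (main 3199 and 3315). With the replicate block the calls were 501, 863, 403, 5524 and 6012 in that order, and those of the 9 genes did not change. Same-numbered libraries correlated by -0.105 to 0.101, so the numbers are not read as pairs. Epx could not be tested without both libraries that stood apart. Fitting only the groups compared tested 9 of the 9 genes in preGM, 4 in HSC, 8 for WT preGM against WT HSC and 6 with MLL-ENL.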
